A study of Mus musculus with 16 samples.

Results

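The 7 genes Pik3cg, Pik3r5, Lrmp, Slitrk6, Mctp1, Sh2d7 and L1cam were named for their H3K4me2 in mTEC-IV, a sorted population of medullary thymic epithelial cells of the mouse. H3K4me2, the dimethyl mark on lysine 4 of histone H3, was measured by chromatin precipitation and sequencing in 8 libraries, 2 for every one of 4 sorted populations (mTEC-I to mTEC-IV). All were sorted from thymi of C57BL/6 mice as CD45-negative and Epcam-positive cells. Further gates kept Itgb4-positive cells with low MHC class II for mTEC-I, cells with high MHC class II for mTEC-II and Ly6D-positive cells for mTEC-III. For mTEC-IV they kept L1cam-positive, Itgb4-negative cells with low MHC class II. The labels do not give the age or sex of the mice nor whether replicate libraries stem from different mice, and p-values thus measure only the spread between these libraries, which may be technical. The 8 whole-cell extract samples were not used here. The members are every merged peak of H3K4me2 whose nearest annotated start site, in the authors' mm9 annotation, belongs to one of the 7 genes. They number 33 of 29472 merged peaks: 8 at Pik3cg, 2 at Pik3r5, 4 at Lrmp, 6 at Slitrk6, 9 at Mctp1, 2 at Sh2d7 and 2 at L1cam. The genes were chosen by their mTEC-IV levels, so every mTEC-IV value of a member is given as a description, with no test.

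H3K4me2 marks promoters and enhancers that are accessible to transcription factors, and wide stretches of it often lie over genes that give a cell type its character. Phosphoinositide 3-kinases add a phosphate to a membrane lipid and so recruit kinases and exchange factors to the membrane. The gamma form, best known from leukocytes, is switched on by G protein beta-gamma subunits downstream of receptors. Pik3cg encodes its catalytic subunit, and Pik3r5 and Pik3r6 encode its alternative regulatory subunits. Tuft cells, chemosensory epithelial cells of the gut, airway and thymic medulla, use taste-type receptors, G proteins and the channel Trpm5.

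A level is the number of H3K4me2 tags in a peak per 10000000 tags of the library, and the level of a gene adds up its peaks. Levels are not divided by peak length, so ranks and shares of a gene's signal also depend on how long a peak is. The libraries held 1702103.5 to 15412132.5 tags. Depth was lowest for mTEC-I replicate 2: a single tag there adds 5.88 to a level, and 1474 of the merged peaks stood at 0. Between replicates, log2 levels of all peaks differed with an SD of 0.84 in mTEC-I and of 0.26 to 0.38 in the rest. All 33 peaks passed the minimum for testing, a level of 10 in at least 2 libraries, but 11 of them passed it only through the mTEC-IV libraries. Groups hold 2 libraries each, and values are given as mean ± SD of n = 2.

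Each of the 7 annotated start sites lay inside a merged peak, so the sequence just upstream of the start is shown for 5 of the genes, to set those that carry a broad mTEC-IV peak beside L1cam, which carries none. The windows are the 250 bases before the outermost RefSeq start of each gene in build GRCm38.p6. The peaks are in mm9, and the starts of the 2 builds were not matched to each other. RefSeq windows were matched for 6 of the 7 genes, and none was printed for Lrmp or Mctp1. The motifs were searched on both strands and stand in capitals. The core of many ETS factor sites is GGAAGT. GC boxes read GGGCGG. Promoters with a fixed start often hold TATAAA. POU factors bind the octamer ATGCAAAT.
Pik3cg chr12:32208660-32208909, minus strand: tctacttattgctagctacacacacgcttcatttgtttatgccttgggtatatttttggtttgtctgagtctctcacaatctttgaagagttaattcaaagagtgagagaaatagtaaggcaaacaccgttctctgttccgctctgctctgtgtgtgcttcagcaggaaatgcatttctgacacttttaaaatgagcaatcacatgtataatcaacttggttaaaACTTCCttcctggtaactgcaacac
Pik3r5 chr11:68431875-68432124, plus strand: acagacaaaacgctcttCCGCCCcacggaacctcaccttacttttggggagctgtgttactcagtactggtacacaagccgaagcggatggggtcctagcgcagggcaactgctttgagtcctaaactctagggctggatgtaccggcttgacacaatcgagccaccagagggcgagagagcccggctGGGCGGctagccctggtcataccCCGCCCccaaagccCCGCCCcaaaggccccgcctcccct
Slitrk6 chr14:110755150-110755399, minus strand: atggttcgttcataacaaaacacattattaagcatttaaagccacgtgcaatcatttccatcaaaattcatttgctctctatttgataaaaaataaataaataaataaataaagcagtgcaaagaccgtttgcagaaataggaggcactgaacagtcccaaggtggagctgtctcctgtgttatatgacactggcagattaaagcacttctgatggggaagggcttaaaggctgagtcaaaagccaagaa
Sh2d7 chr9:54533873-54534122, plus strand: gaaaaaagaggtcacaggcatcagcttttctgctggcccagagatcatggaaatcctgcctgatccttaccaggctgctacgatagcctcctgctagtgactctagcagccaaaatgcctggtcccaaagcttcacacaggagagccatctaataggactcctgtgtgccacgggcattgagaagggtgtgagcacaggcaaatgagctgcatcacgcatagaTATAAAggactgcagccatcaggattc
L1cam chrX:73880835-73881084, minus strand: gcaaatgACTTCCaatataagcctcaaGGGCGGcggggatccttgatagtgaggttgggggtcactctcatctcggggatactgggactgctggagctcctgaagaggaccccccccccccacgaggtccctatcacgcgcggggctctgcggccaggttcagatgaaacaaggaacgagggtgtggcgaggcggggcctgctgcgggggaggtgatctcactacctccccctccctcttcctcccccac
Pik3cg, Slitrk6 and Sh2d7 had 3 CpG dinucleotides each in this window, below the median of 6 over 32851 RefSeq windows of the same length. Pik3r5 had 14 and L1cam 12. The Pik3r5 window held 4 GC boxes and the L1cam window 1, and 32.7% of all windows hold at least 1. GGAAGT was found once in the Pik3cg window and once in that of L1cam, against 19.7% of all windows, and TATAAA once in that of Sh2d7, against 12.4%. The octamer, present in 1.6% of all windows, was in none of these 5. A match describes the letters of the window and is not a measured binding site.

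In mTEC-IV the 7 genes differed widely in level, and 6 of them ranked between 2 and 479 of 15738 genes. Mctp1 (rank 2) stood at 2407 ± 33 and Pik3cg (rank 16) at 1785 ± 45. Lrmp stood at 1321 ± 16, Slitrk6 at 1019 ± 11, Sh2d7 at 914 ± 92 and Pik3r5 at 718 ± 115. L1cam, the gene of the surface protein used in the sort, stood at 191 ± 13, rank 6918, so it does not carry one of the largest mTEC-IV signals. Both mTEC-IV libraries lay above the 6 others at all 7 genes, which the choice of genes fixes, and 18.4% of all genes tested had that order. Over the highest mean of another population the mTEC-IV level was 10.9-fold at Lrmp, 9.0-fold at Sh2d7, 7.17-fold at Pik3cg, 5.42-fold at Pik3r5, 5.24-fold at Slitrk6, 4.90-fold at Mctp1 and 2.81-fold at L1cam.

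**Figure D1:**
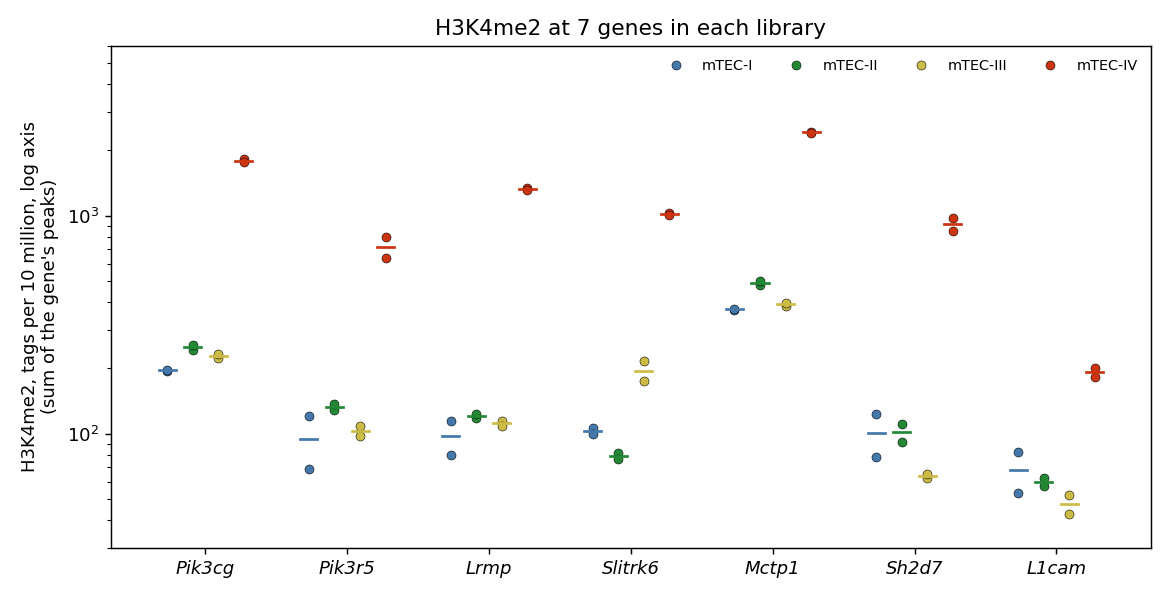
H3K4me2 of the 7 genes, in tags per 10000000 on a log axis, as the sum of each gene's peaks. Each point is 1 library and each bar the mean of the 2 libraries of a population; the mTEC-IV points lie above the rest at each gene, by the widest ratio at Lrmp (10.9-fold) and the narrowest at L1cam (2.81-fold).

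Most of the peaks were called by the authors in mTEC-IV alone. Of the 33, 32 are in their mTEC-IV list, 25 of these in no other population's list, while 13.5% of all merged peaks are in the mTEC-IV list alone. The mTEC-II list holds 7, the mTEC-III list 4 and the mTEC-I list 1, but these lists differ in size, from 7036 peaks for mTEC-I to 23949 for mTEC-II. Both mTEC-IV libraries were above the 6 others at 30 of the 33 peaks, an order found at 22.3% of all peaks. The 3 exceptions were a Mctp1 peak at -128 kb, where both mTEC-IV libraries were the lowest (11.4% of all peaks), a Pik3cg peak at -83.4 kb and a Pik3r5 peak at 19.6 kb, where the groups overlapped. The counts of 25 and of 30 peaks were favoured by the choice of the genes for their mTEC-IV levels and are description only. Peaks of the same gene are also not independent of each other. The peaks were spread over long distances: 20 lay more than 20 kb and 11 more than 100 kb from the start site. The annotation places 16 in introns, 14 between genes, 2 at promoters and 1 in an exon. At the 7 start-spanning peaks the mTEC-IV mean was 1.15 to 11.3 times the highest other mean (median 3.26), and at the 26 others 0.20 to 20.3 times (median 8.82), a comparison that rests on the levels used to choose the genes.

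**Figure D2:**
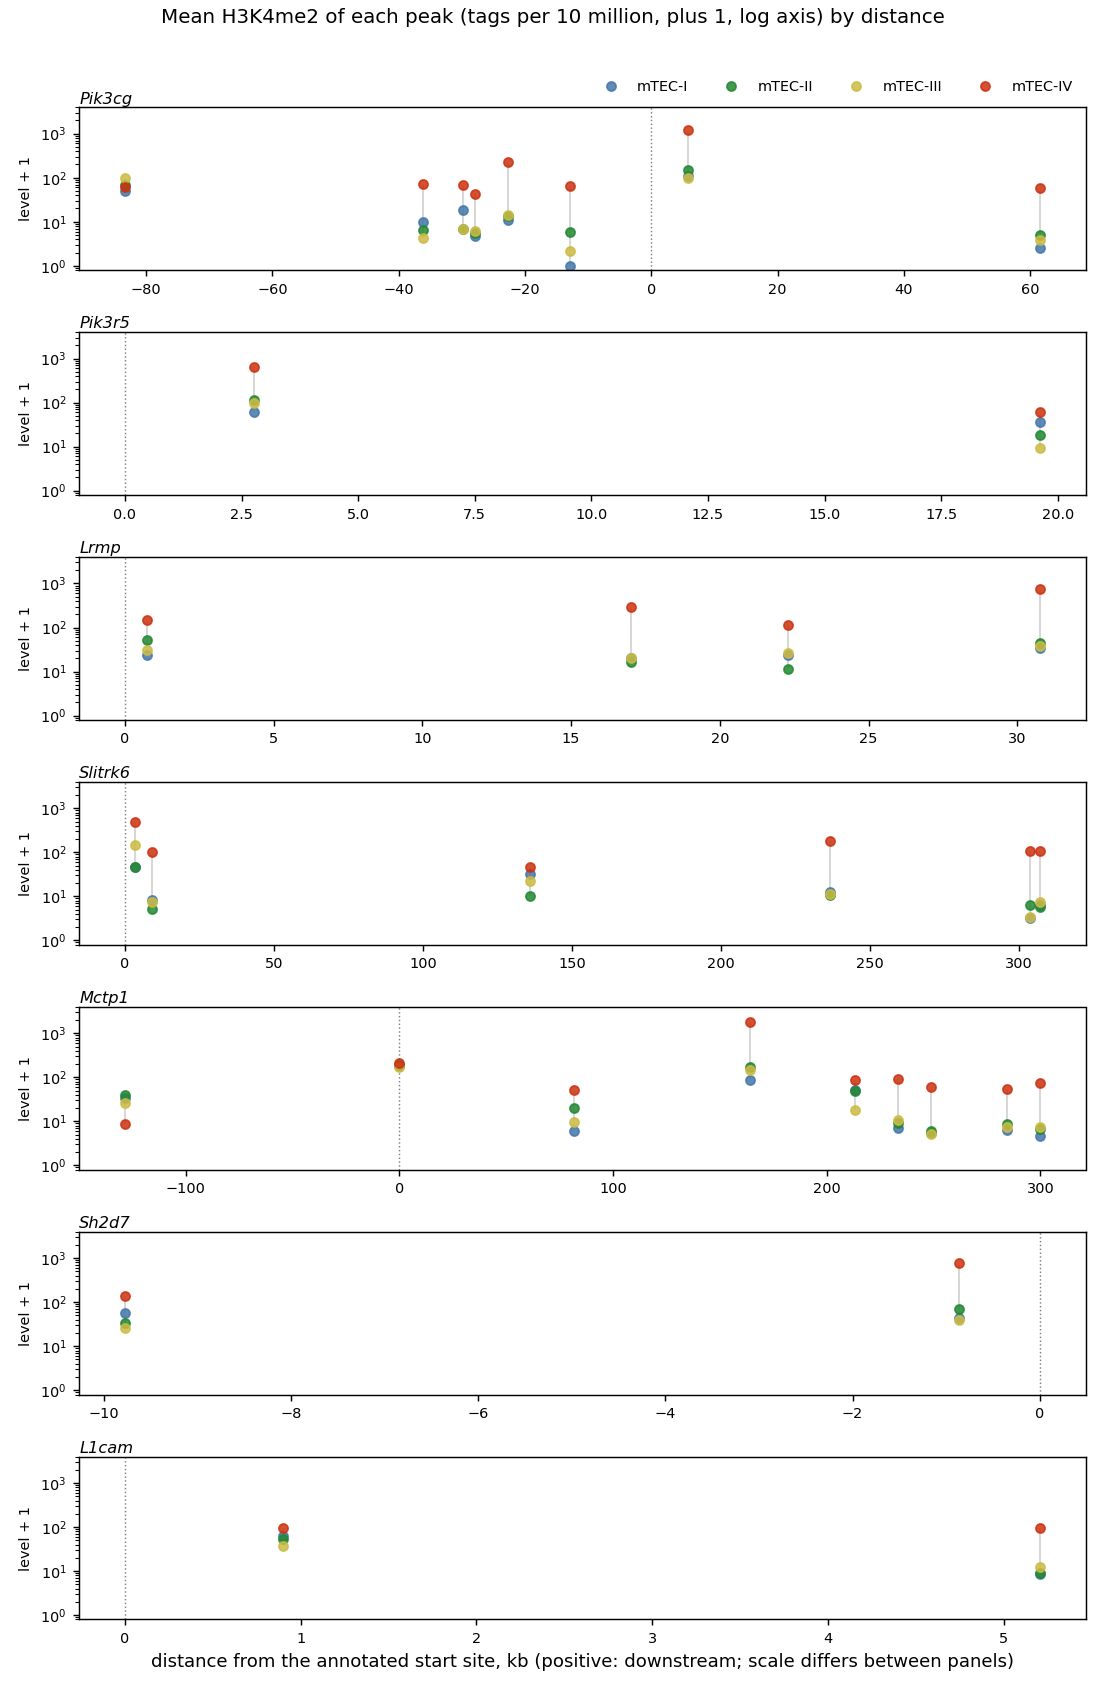
Mean H3K4me2 of each of the 33 peaks, in tags per 10000000 plus 1 on a log axis, by distance of the peak centre from the annotated start site in kb. Each point is the mean of 2 libraries of a population; at Mctp1 the 4 points coincide at the start and part at 164 kb, and at Pik3cg they come together at -83.4 kb.

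Pik3cg carried a broad peak over its first exons and a row of shorter ones, all upstream except that at 61.5 kb. The broad peak, at chr12:32879018-32895634 in mm9, is 16.6 kb long and centred 5.88 kb downstream of the start, in intron 2. The mTEC-IV libraries held 1228.32 and 1168.56 there, while mTEC-I had 88.21 and 123.38, mTEC-II had 141.45 and 149.21, and mTEC-III had 99.67 and 98.33. Its mTEC-IV level had rank 10 among all merged peaks. The other populations were not at 0 here: in mTEC-II the authors called a peak of 1.01 kb inside the broad one. Upstream, the peak at -22.7 kb reached 232.03 and 213.88 in mTEC-IV and at most 14.13 elsewhere. The 5 further peaks from -36.1 to 61.5 kb, other than these, had mTEC-IV means of 42.6 to 72.6. The peak at -12.8 kb stood at 62.13 and 63.33 in mTEC-IV, while 3 of the 6 other libraries, both of mTEC-I among them, were at 0 (3 tags, the level a count of 0 allows, are 4.64 and 17.6 in the mTEC-I libraries). The peak at -83.4 kb had another order. It was highest in mTEC-III (92.73 and 101.27), followed by mTEC-II (61.96 and 70.35), mTEC-IV (69.28 and 54.37) and mTEC-I (49.52 and 47.00).

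Pik3r5, the regulatory partner, had its signal in one broad peak over the start. This peak, at chr11:68243856-68252934 in mm9, is 9.08 kb long and reaches into intron 1. In mTEC-IV it stood at 587.77 and 727.06. mTEC-I had 48.75 and 70.50, mTEC-II had 115.82 and 114.03, and mTEC-III had 100.93 and 88.91. All 6 were far below mTEC-IV, and the authors called shorter peaks within it in mTEC-II (1.44 kb) and mTEC-III (1.15 kb). The second peak, at 19.6 kb in the same intron, was weak: 49.48 and 72.29 in mTEC-IV and 20.12 and 49.94 in mTEC-I, where replicate 2 exceeded the lower mTEC-IV library.

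Lrmp encodes a membrane protein of the endoplasmic reticulum that binds inositol trisphosphate receptors and is known from lymphocytes and taste cells. Its strongest peak was not the one at the start. At 30.8 kb, in intron 7 (chr6:145095249-145106771 in mm9, 11.5 kb), the mTEC-IV libraries stood at 790.11 and 734.83 and the 6 others at 24.76 to 44.77. At 17.0 kb, in intron 3, they stood at 278.76 and 316.63, against 14.92 to 24.14. The start-spanning peak at 0.75 kb held 149.55 and 145.77 in mTEC-IV and 47.69 and 54.06 in mTEC-II, so the difference there was 2.90-fold, against 17.3-fold at 30.8 kb.

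Mctp1 encodes a membrane protein with calcium-binding C2 domains. Its domain in intron 1, at chr13:76676582-76696438 in mm9 and 164 kb from the start, is 19.9 kb long and had the highest mTEC-IV level of all merged peaks. The mTEC-IV libraries held 1786.40 and 1754.03, while mTEC-I had 82.80 and 91.06, mTEC-II had 167.08 and 174.38, and mTEC-III had 135.00 and 158.97. This peak held 73.5% of the gene's mTEC-IV signal. The promoter peak did not share the pattern. It was called in all 4 populations and held 217.18 and 208.50 in mTEC-IV, 1.15 times the highest other mean. mTEC-I had 190.36 and 161.56, mTEC-II had 185.89 and 185.49, and mTEC-III had 182.94 and 153.08. The peak at -128 kb, called in mTEC-II alone, was lowest in mTEC-IV (6.60 and 8.96) and highest in mTEC-II (41.20 and 37.02).

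Slitrk6, a membrane protein best known from neurons and the inner ear, differed most among the other 3 populations of the 7 gene sums, with mTEC-III highest. The start-spanning peak (chr14:111146995-111155043 in mm9, 8.05 kb, centred in exon 2) stood at 494.30 and 468.98 in mTEC-IV and 165.91 and 129.53 in mTEC-III. mTEC-I (56.49 and 35.25) and mTEC-II (42.82 and 47.76) lay below both mTEC-III libraries. The distal peaks did not show the mTEC-III signal. At 304 kb, the peak with the widest ratio of the 33, the level was 115.46 and 102.16 in mTEC-IV and at most 5.55 in the 6 others. At 237 kb it was 167.70 and 185.80 against 5.42 to 17.63.

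Sh2d7, which encodes a small protein with an SH2 domain, and L1cam, an adhesion protein of neurons, had 2 peaks each. The Sh2d7 peak over the start (chr9:54379836-54392022 in mm9, 12.2 kb) stood at 734.02 and 819.07 in mTEC-IV and at 28.63 to 71.70 in the 6 others. Its peak at -9.78 kb stood at 114.91 and 160.11 against 18.92 to 64.63. At L1cam the start-spanning peak was shared: 93.47 and 100.37 in mTEC-IV against 34.06 to 76.38, a 1.61-fold ratio of means. The second, at 5.21 kb in intron 1 (chrX:71119573-71122361 in mm9), stood at 87.97 and 99.77 in mTEC-IV and 5.88 to 14.13 elsewhere, an 8.18-fold ratio. Read side by side, the 2 peaks of this sort-gate gene had almost the same mTEC-IV level and differed in the other populations. Per kb of peak length the mTEC-IV means were 45.4 at the start-spanning peak and 33.7 at the second, longer one.

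The other 3 populations were compared with each other, since the choice of genes did not use these differences. Changes are on the log2(value + 1) scale, with their SE after ±. The adjusted p is limma's, by Benjamini-Hochberg over all peaks or genes, called under 0.05. Slitrk6 was the gene with the largest differences. Its gene sum was 194 ± 28 in mTEC-III, 103 ± 4.3 for mTEC-I and 78.8 ± 3.7 for mTEC-II, so mTEC-III was higher than mTEC-I by 0.90 ± 0.13 (adjusted p = 5.6e-05) and higher than mTEC-II by 1.28 ± 0.13 (adjusted p = 7.5e-06). The start-spanning peak alone gave 1.69 ± 0.21 and 1.68 ± 0.21 (adjusted p = 1.5e-04 and 5.5e-04). These 4 calls held under every alternative that was run. Against mTEC-I, Slitrk6 in mTEC-II was lower by a log2 change of -0.38 (adjusted p = 0.0377), but that call ended with equal totals (0.0878), with loess (0.179), when either mTEC-II library was dropped (0.113 and 0.213) and when either mTEC-IV library was (0.0817 and 0.0813). It also ended in the fit of the 6 libraries without mTEC-IV (0.121), and within 20 kb of the start the change was -0.067 (0.830).

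The remaining genes differed less. Mctp1 stood at 371 ± 2.2, 491 ± 13 and 393 ± 8.8 in these populations, mTEC-I first. mTEC-II was higher than mTEC-I by 0.40 ± 0.070 (adjusted p = 6.8e-04), and mTEC-III lower than mTEC-II by -0.32 ± 0.070 (adjusted p = 0.0042; 0.0791 without mTEC-II replicate 2). The Mctp1 domain at 164 kb was higher than in mTEC-I by 0.97 ± 0.11 in mTEC-II and 0.75 ± 0.11 in mTEC-III (adjusted p = 1.4e-04 and 4.2e-04), calls that held under every alternative. With only the peaks within 20 kb of the start, which leaves this domain out, both calls on the Mctp1 gene sum ended (adjusted p = 0.680 and 0.444). Pik3cg, at 195 ± 2.4, 248.9 ± 8.3 and 228 ± 7.0 in the same order, was higher in mTEC-II than in mTEC-I by 0.35 ± 0.087 (adjusted p = 0.0085; 0.0530 and 0.108 without either mTEC-II library). Pik3cg was not called in the other comparisons, but passed in mTEC-III against mTEC-I with equal totals (0.23, adjusted p = 0.0437) and in mTEC-III against mTEC-II within 20 kb of the start (-0.58, adjusted p = 0.0086). Sh2d7, at 101 ± 32, 102 ± 14 and 63.9 ± 2.1, was lower in mTEC-III than in mTEC-I and mTEC-II by -0.61 ± 0.18 and -0.65 ± 0.18 (adjusted p = 0.0183 and 0.0182). The first of these calls ended without mTEC-I replicate 2 (0.149) and without either mTEC-III library (0.117 and 0.0762). The second ended without mTEC-II replicate 1 (0.187) and without either mTEC-III library (0.122 and 0.0820). Neither passed in the fit of the 6 libraries without mTEC-IV (0.0623 and 0.0625).

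Pik3r5, Lrmp and L1cam were not called in any of these 3 comparisons. For Pik3r5 in mTEC-II against mTEC-I the change was 0.54, with a 95% interval of 0.11 to 0.96 (adjusted p = 0.0594), and it passed without mTEC-I replicate 2 (0.93, adjusted p = 7.0e-06), with equal totals (0.0445) and with loess (0.0235). For Lrmp the largest change was 0.34 (interval 0.025 to 0.65), in mTEC-II against mTEC-I, which passed without mTEC-I replicate 2 (adjusted p = 3.8e-04), with loess (0.0338) and within 20 kb of the start (0.0182). Pik3r5 and Lrmp in mTEC-III against mTEC-I passed without mTEC-I replicate 2 (0.57 and 0.48, adjusted p = 0.0021 and 0.0023), and Pik3r5 in mTEC-III against mTEC-II passed without either mTEC-I library (-0.36, 0.0135 and 0.0163). For L1cam it was -0.48 (-0.94 to -0.0087), in mTEC-III against mTEC-I, which passed without mTEC-I replicate 1 (adjusted p = 0.0020). Single peaks showed more. The broad Pik3r5 peak was higher in mTEC-II than in mTEC-I by 0.96 ± 0.18 (adjusted p = 0.0028), which held under every alternative, and in mTEC-III by 0.68 ± 0.18 (adjusted p = 0.0124; 0.109 without mTEC-III replicate 1). The Pik3cg peak at -83.4 kb was higher in mTEC-III than in mTEC-I by 0.99 ± 0.20 (adjusted p = 0.0030), also under every alternative. The broad Pik3cg peak was higher in mTEC-II than in mTEC-I by 0.47 (adjusted p = 0.0315) and lower in mTEC-III than in mTEC-II by -0.55 (adjusted p = 0.0224). The first call ended whenever a library other than mTEC-I replicate 2 was left out (adjusted p from 0.0537 to 0.174), and the second whenever one of mTEC-II, mTEC-III or mTEC-IV was (0.0517 to 0.163). In the fit without mTEC-IV they stood at 0.0863 and 0.0679.

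Of the 33 peaks, 6 were called between mTEC-II and mTEC-I (5 higher, 1 lower), 7 between mTEC-III and mTEC-I (4 and 3) and 3 between mTEC-III and mTEC-II (1 and 2). Over all peaks 25.3% (15.8% higher, 9.5% lower), 30.8% (17.1% and 13.7%) and 17.6% (7.69% and 9.88%) were called in these comparisons. Each called member peak was among the 22 that pass the minimum without the mTEC-IV libraries, and none was among the 11 that pass only with them, so a share of the 33 is not set against that of all peaks. Of the 7 genes, 3, 2 and 3 were called, against 25.4%, 31.4% and 22.3% of all genes. The median change of the 7 genes was 0.34, 0.17 and -0.32, against -0.090, -0.014 and 0.064 over all genes tested. The 7 remaining peak calls follow. In mTEC-II, the Lrmp start peak and the Mctp1 peak at 81.7 kb were higher than in mTEC-I (1.14 and 2.04) and the Slitrk6 peak at 136 kb lower (-1.64). In mTEC-III, the Mctp1 peak at 213 kb was lower than in mTEC-I and mTEC-II (-1.69 and -1.66), and the Pik3r5 peak at 19.6 kb (-1.84) and the Sh2d7 peak at -9.78 kb (-1.21) were lower than in mTEC-I. Apart from the first Mctp1 comparison at 213 kb, each of these lost its call when 1 library of mTEC-II or mTEC-III was left out (adjusted p from 0.0515 to 0.20 in those fits). The Mctp1 peak at 81.7 kb also lost it with loess (1.22, adjusted p = 0.193), without either mTEC-IV library (0.0530 and 0.0540) and without both (0.0570), and the Lrmp start peak without both (0.0565).

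**Figure D3:**
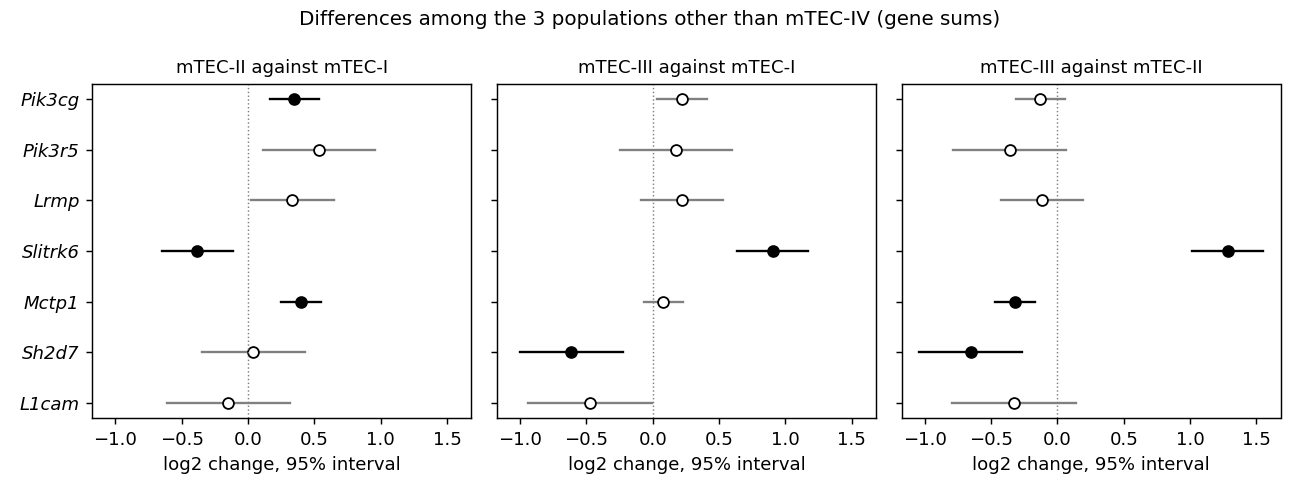
Differences among the 3 populations other than mTEC-IV at the 7 genes, as log2 changes of the gene sums with 95% intervals; filled points passed an adjusted p of 0.05. Slitrk6 in mTEC-III is farthest from 0, at 0.90 and 1.28.

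The other genes of the phosphoinositide 3-kinase pathway did not move as a block in mTEC-IV. Of 41 listed, 37 had a peak, and against the mean of the other 3 populations 15 were higher, 5 lower and 17 not called. Over all genes tested, 20.4% were called higher and 12.6% lower. The median change of the list was 0.034, against 0.018 over all genes. With each library scaled to the same total in peaks, the split over all genes turned from 3214 higher and 1988 lower to 2633 and 3324, and the list had 8 genes lower. Pik3ca, Hras and Btk were among those with no merged peak.

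The kinase subunits went different ways. Of the 4 other regulatory subunit genes 3 were higher and 1 lower. Of the 2 other catalytic ones with a peak 0 were higher and 1 lower. Over all genes tested, the shares were 20.4% and 12.6%. Pik3cd, the catalytic subunit of the delta form of leukocytes, stood at 172 ± 22 in mTEC-IV, 190 ± 49 for mTEC-I, 184 ± 3.5 for mTEC-II and 116 ± 9.4 for mTEC-III, with no call (0.11 ± 0.14, adjusted p = 0.599). Pik3cb was lower (235 ± 9.7 against 293 to 317, -0.38 ± 0.090, adjusted p = 0.0039; 0.0772 without mTEC-IV replicate 1 and 0.167 within 20 kb of the start), as was the regulatory gene Pik3r2 (-0.40 ± 0.088, adjusted p = 0.0023; 0.0845 without mTEC-IV replicate 2). Pik3r6, the other regulatory subunit of the gamma form, was higher, at 88.4 ± 7.6 against 21.5 to 43.0 (1.38 ± 0.25, adjusted p = 5.1e-04). Its single peak lies in intron 1 of Pik3r5, 14.6 kb from the nearest Pik3r5 peak, so it is not separate in position from that gene.

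Among G protein subunits 6 of 10 were higher and none was lower, against 20.4% and 12.6% of all genes tested. Gnat3, the alpha subunit of taste cells known as gustducin, stood at 925 ± 14 in mTEC-IV against 47.4 to 51.6 (4.20 ± 0.17, adjusted p = 7.8e-11). Gnb3 and Gng13, the beta and gamma subunits found with it in taste cells, were higher by 3.12 ± 0.18 and 1.35 ± 0.18 (adjusted p = 2.6e-09 and 2.2e-05). Gnat3, Gnb3 and Gng13 were the 3 genes of this group with the largest changes. The list was chosen with earlier results of these data known, so the count of 6 and this order are description only. Downstream, Vav1, an exchange factor of blood cells, stood at 940 ± 84 against 270 to 322 (1.66 ± 0.098, adjusted p = 3.1e-09), and Plcg2, a phospholipase of lymphocytes, was higher by 1.33 ± 0.075 (adjusted p = 1.8e-09). Inpp5d, the lipid phosphatase that removes the kinase's product in blood cells, stood at 608 ± 60 in mTEC-IV, against 144 ± 12 for mTEC-II, 129 ± 12 for mTEC-III and 26.5 ± 4.2 for mTEC-I (2.92 ± 0.13, adjusted p = 1.9e-10). Dock2 (-0.63, adjusted p = 0.0142) and Plcg1 (-0.31, adjusted p = 0.0260) were lower than the mean of the other 3 populations, but level with 1 of them. Dock2 stood at 48.9 ± 3.2 in mTEC-IV and 48.9 ± 15 for mTEC-I, against 92.2 for mTEC-II and 101 for mTEC-III. Plcg1 stood at 275 ± 7.0 in mTEC-IV and 274 ± 18 for mTEC-II, against 316 for mTEC-I and 463 for mTEC-III. Neither kept its call without either mTEC-IV library (-0.70 and -0.57 for Dock2, -0.34 and -0.28 for Plcg1). Plcg1 also lost its call without mTEC-II replicate 2 (0.0670) and without mTEC-III replicate 1 (0.0742), and within 20 kb of the start neither Plcg1 (0.0819) nor Dock2 (0.459) passed.

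**Figure D4:**
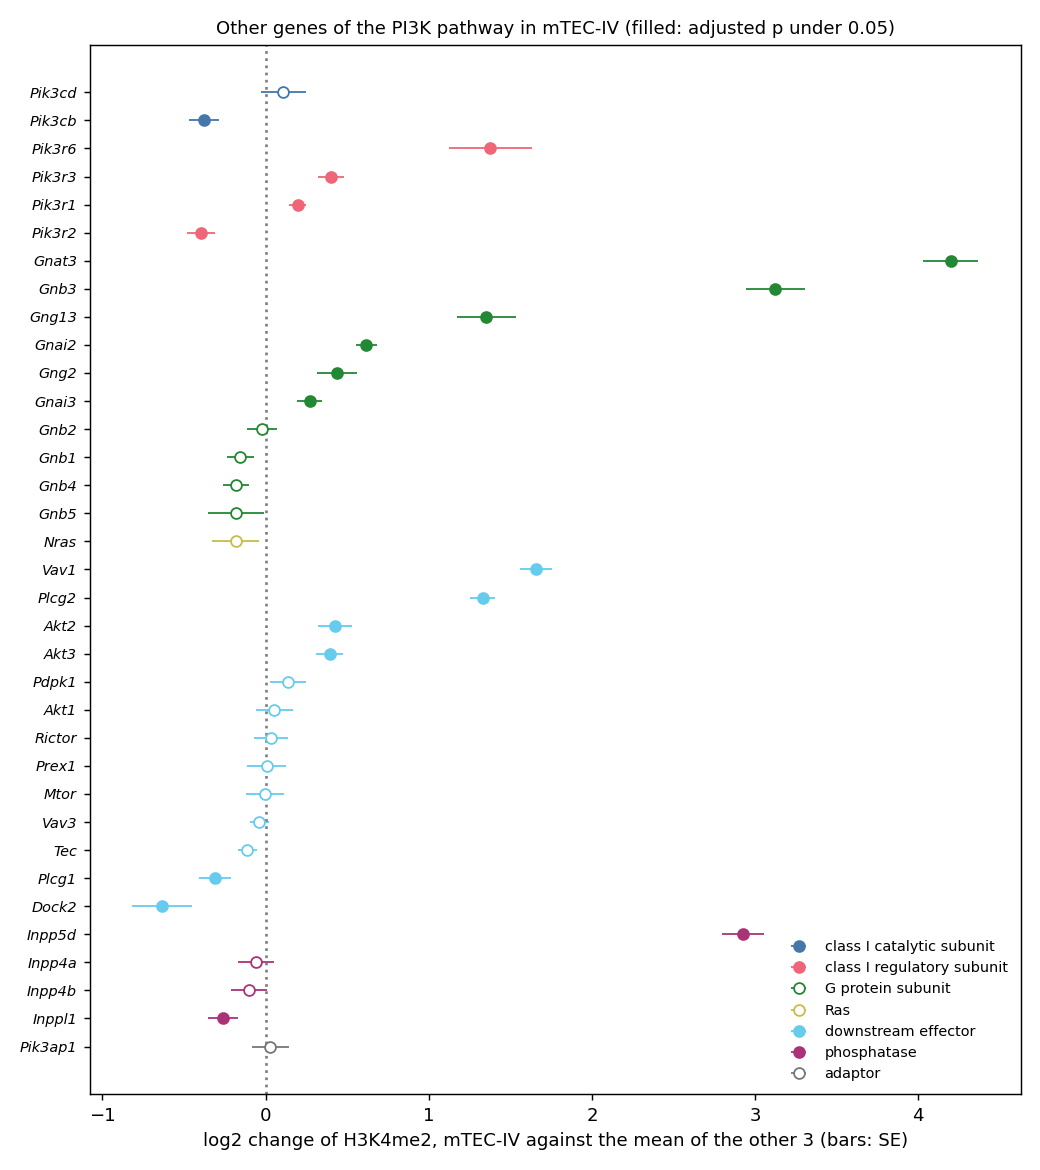
Log2 change of H3K4me2 in mTEC-IV against the mean of the other 3 populations for 35 of the 37 other pathway genes with a peak, ± SE, grouped by role; filled points passed an adjusted p of 0.05. Gnat3 (4.20), Gnb3 (3.12) and Inpp5d (2.92) are farthest to the right, and most points lie near 0.

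Close relatives of the members were tested as well: 18 of 21 had a peak, 5 were higher, 2 lower and 11 not called, with a median of 0.15. Over all genes tested, 20.4% were called higher and 12.6% lower, with a median of 0.018. Sh2d2a, Sh2d6 and Mrvi1 had no peak. Of the 6 Sh2d relatives with a peak, 1 was higher, 2 lower and 3 not called, with a median of 0.0041. None of the 5 other Slitrk genes was called, and Slitrk5 stood at 416 ± 13 in mTEC-IV against 328 to 417 (0.20, adjusted p = 0.0662; 0.0223 to 0.0367 without either mTEC-I library or mTEC-III replicate 2). Mctp2, the second Mctp gene, was higher, at 550 ± 27 against 214 to 255 (1.20 ± 0.080, adjusted p = 1.2e-08). Of the L1 family, Nrcam (0.96 ± 0.083) and Nfasc (1.26 ± 0.10) were higher (adjusted p = 2.2e-07 and 8.9e-08), and Chl1 was not called (0.13, adjusted p = 0.306). Of the inositol trisphosphate receptors Itpr2 was higher (0.84 ± 0.077, adjusted p = 4.6e-07), and Itpr3, the receptor of taste cells, stood at 305 ± 2.5 against 297 to 346 (-0.078, adjusted p = 0.583).

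Marker lists of the cells that the sorts could hold were set beside these values. Higher and lower are against the mean of the other 3 populations, not against each of them. Over all genes tested, 20.4% were called higher and 12.6% lower. All 14 tuft cell markers with a peak were higher in mTEC-IV (median 2.42), from Ltc4s at 0.60 to Rgs13, a regulator of G protein signalling, at 4.33 and Trpm5 at 4.55, and the list's summed level was 8525 to 8851 in the mTEC-IV libraries against 1898 to 2228 in the rest. Chat had no peak. Of 11 thymocyte and T cell markers only Cd2 and Cd28 had a peak (no peak at Cd3e, Cd3d, Cd3g, Cd4, Cd8a, Lck, Rag1, Cd5 or Trat1), summing to 70.9 and 90.2 in mTEC-IV and 53.0 to 118 elsewhere. Cd2 was lower than the mean of the other 3 populations (-0.80, adjusted p = 0.0189) but not lower than mTEC-III (22.4 ± 2.9 in mTEC-IV against 21.7 ± 2.3). Cd2 lost its call without either mTEC-IV library (-0.68 and -0.93) and without mTEC-II replicate 2 (-0.72). Of 8 B cell markers 5 had a peak and all 5 were higher in mTEC-IV, among them Cd79a (67.4 ± 14 against 8.94 to 12.2, 2.65 ± 0.37, adjusted p = 3.7e-05) and Cd79b (124 ± 1.2 against 24.7 to 48.3, 1.76 ± 0.23, adjusted p = 1.9e-05). Both mTEC-IV libraries lay above the 6 others at 4 of these 5 genes, an order found at 18.4% of all genes tested. Ms4a1 and Blk were among the B cell markers with no peak. The list's summed level was 1208 and 1272 in mTEC-IV, where mTEC-II had 1003 and 1041, mTEC-III had 742 and 770, and mTEC-I had 508 and 511. Of 13 myeloid and dendritic cell markers 8 had a peak, with Mpeg1 (0.91) and Flt3 (0.68) higher, Itgax (-1.60) and Itgam (-0.93) lower and 4 not called. The Flt3 and Itgam calls (adjusted p = 0.0366 and 0.0224) each ended when a library of mTEC-II or mTEC-IV or mTEC-III replicate 1 was dropped (adjusted p from 0.0532 to 0.225), that of Flt3 also with equal totals (0.0553) and loess (0.0879). Flt3 was not higher than mTEC-II (72.5 ± 2.2 in mTEC-IV against 88.8 ± 1.2). Lyz2, Spi1, Csf3r, Fcer1g and Tyrobp had no peak, and the summed level of the myeloid and dendritic list was 760 in both mTEC-IV libraries, against 679 to 862 in the rest. Of 10 fibroblast and endothelial markers 7 had a peak, with Cdh5 (3.10) and Pdgfrb (2.50) higher, Dcn lower (-0.85, adjusted p = 0.0311; 0.0539 to 0.319 without mTEC-II replicate 1, mTEC-III replicate 1 or either mTEC-IV library) and Col1a2, Col3a1 and Tie1 without a peak. Dcn stood at 17.6 ± 4.6 in mTEC-IV, above mTEC-III (10.1 ± 0.92) and below mTEC-II (36.8 ± 8.1) and mTEC-I (87.4 ± 22). The summed level of the fibroblast and endothelial list was 788 and 824 in mTEC-IV, against 409 to 937 in the rest. In cells of a sorted pool, a few cells with a strong mark and many with a weak one cannot be told apart, and the part of other cells in the members' levels was not tested.

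The gene whose pattern over the 8 libraries was most like that of each member was found by the root mean square difference of log2 levels, centred per gene. For Pik3cg it was Ptprc, the gene of CD45, which the sorts excluded (0.17, against a median of 1.32 over all genes), and the next was 4932413F04Rik. Ptprc stood at 267 in mTEC-IV and at most 48.9 in the 6 other libraries. For Pik3r5 the nearest was Sucnr1, a succinate receptor (0.14). For Lrmp they were Mir378b and Gm9961, for Sh2d7 Tas2r106, of the bitter taste receptor family, and Mir378b, for Mctp1 Gm12657 and Ptprc, for L1cam Chst9 and Unc5d, and for Slitrk6 Prss53 and A430090L17Rik. Prss53, at 0.33, was the least close of the 7 nearest genes. These likenesses were computed over all 8 libraries, mTEC-IV included, and describe the pattern only.

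Peaks within 100 kb of a member's peaks but annotated to other genes were examined after the members' values were seen. There were 23, annotated to 17 genes, and were tested in mTEC-IV against the mean of the other 3 populations. By limma 10 of them were higher, 0 lower (1 with loess) and 13 not called, against 23.5% and 14.3% of all peaks called higher and lower. None lay near Slitrk6 or Mctp1. Beside Sh2d7, 4 peaks of Dmxl2, a gene of vesicle acidification, were higher, of which the one at 11.9 kb was not called with loess (adjusted p = 0.0970). Of these, the peak at 18.7 kb from the Dmxl2 start held 68.18 and 85.43 in mTEC-IV and at most 6.31 elsewhere (4.08 ± 0.57, adjusted p = 1.8e-04), and the one over its start 382.68 and 332.17 against 238 to 271 (0.49 ± 0.083, adjusted p = 6.4e-04). The Dmxl2 peaks at 18.7 and 11.9 kb passed the minimum for testing only through the mTEC-IV libraries, in which they were then called higher, and both count among the 10. Beside Pik3r5, both Ntn1 peaks were higher (0.40 and 0.59, adjusted p = 0.0095 and 0.0025; the first 0.174 without mTEC-IV replicate 2), as was the Pik3r6 peak. Beside L1cam, the Arhgap4 start peak stood at 171.55 and 158.91 in mTEC-IV against 0.00 to 54.43 (2.74 ± 0.88, adjusted p = 0.0273, but 0.0732 to 0.167 without either mTEC-III or mTEC-IV library). The 0.00 at Arhgap4 was mTEC-I replicate 2, the library of lowest depth, and it enters the log2 change. There mTEC-I replicate 1 stood at 32.50, and mTEC-II and mTEC-III at 44.75 to 54.43. Near Lrmp a Bcat1 peak was higher than the mean of the other 3 (0.58, adjusted p = 0.0424), but not higher than mTEC-II (66.8 ± 3.5 in mTEC-IV against 71.6 ± 6.5). The call ended with equal totals and without either library of mTEC-II or mTEC-IV or without mTEC-III replicate 1. Near Pik3cg the Prkar2b start peak was higher by 0.75 (adjusted p = 0.0010), while the Lyrm5 start peak near Lrmp was not called (-0.094, adjusted p = 0.564).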

How the data were processed

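H3K4me2 of 8 libraries was analysed, 2 from each of 4 sorted populations. The submitters' processing notes name bcl2fastq 2.15.0.4, Picard 1.108 and the build mm9, and no aligner is given in the sources used here. Per the file headers, the authors annotated the merged peaks with HOMER and deposited the signal as tags per 10000000. Their peak lists, 1 per population with replicates combined, were used only for which peaks they hold and how long these are. The fold over control and the p-values that the authors deposited in these lists were not used. Here, signals were tested as log2(value + 1) with limma-trend (limma 3.58.1, R 4.3.3) in 1 fit of all 8 libraries, without the 2 mitochondrial peaks and with a minimum of 10 in at least 2 libraries, which left 29469 peaks. The deposited signal was summed per gene over the peaks nearest to its start (15738 genes), so a peak inside one gene can count for a neighbour. A log2 change on this scale understates that of low peaks. The planned edgeR alternative was not run, because the values are multiples of 0.5 tags, not whole reads. Members and gene lists were chosen with earlier results of these data known. Named by rule were all members, Pik3cd, Pik3r6, Slitrk5, Mctp2, Chl1 and Itpr3, the 4 most changed pathway genes and the 2 most changed markers per list in each direction, and the 2 genes nearest to each member in pattern; Gng13, Plcg2, Nrcam, Nfasc, Itpr2, Ltc4s and the neighbouring genes were chosen after their values were seen. Some genes of the lists and of this rule are counted but not reported here by name.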

Additional observations from a re-analysis of the deposited data

How the results depend on the processing

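Replicates number 2 per group, and when 1 is left out the lone library is assumed to vary like the other groups. Leaving out each library in turn gave 2 to 15 member peaks called between mTEC-II and mTEC-I (6 with all libraries), 4 to 16 between mTEC-III and mTEC-I (7), and 1 to 12 between mTEC-III and mTEC-II (3), and 1 to 5, 1 to 3 and 2 to 4 member genes (3, 2 and 3). The 15 and 16 came without mTEC-I replicate 1, and the 12 without either mTEC-I library. In the same fits the share of all peaks called ranged from 8.3% to 43.1%, 16.9% to 45.9% and 3.07% to 37.2%. With only the 6 libraries of mTEC-I, mTEC-II and mTEC-III, 3 peaks were called between mTEC-II and mTEC-I and 1 gene between mTEC-III and mTEC-I; with loess 5 peaks were called between mTEC-III and mTEC-II. In mTEC-IV, leaving out a library gave 10 to 15 pathway genes higher (15) and 1 to 7 lower (5), the 1 without either mTEC-IV library, and 0 to 2 relatives lower (2). It gave 0 to 1 T cell markers higher (0) and 0 to 1 lower (1), 1 to 2 myeloid markers higher (2) and 1 to 4 lower (2), and 0 to 2 fibroblast and endothelial markers lower (1). With equal totals 8 pathway genes were lower and 1 myeloid marker higher, and with loess 1 myeloid marker was higher. Within 20 kb of the start 1 relative and 0 myeloid markers were lower and 1 fibroblast or endothelial marker was higher. Of the 23 neighbouring peaks 7 to 12 were higher when a library was left out (10 with all) and 0 lower, and with loess 9 were higher and 1 lower. The tuft cell count stayed at 14 in every setting run. Over all features, loess moved the peaks higher in mTEC-IV from 6929 to 4530 (lower 4223 to 5542) and the genes lower in mTEC-II than in mTEC-I from 2117 to 1340 (higher 1874 to 2150). Equal totals moved the genes lower in mTEC-IV from 1988 to 3324 (higher 3214 to 2633). The signs below that turned were of uncalled changes. With 1 library left out, Sh2d7 in mTEC-II against mTEC-I ranged from -0.28 (without mTEC-I replicate 1; -0.096 without mTEC-II replicate 1) to 0.37 and L1cam from -0.45 to 0.16. In mTEC-III against mTEC-I Pik3r5 ranged from -0.22 to 0.57 and Lrmp from -0.038 to 0.48, both turning without mTEC-I replicate 1, and Pik3cd in mTEC-IV from -0.022 to 0.24. Within 20 kb Pik3cg and Mctp1 in mTEC-III against mTEC-I (-0.058 and -0.067), and Chl1 in mTEC-IV (-0.036), turned. The cause of these changes was not tested. Libraries with the same replicate number did not deviate together (correlations of replicate differences from -0.012 to 0.016 over 6 pairs of populations, across peaks), so the numbers were not taken to pair samples; with the replicate block the member peaks called were 6, 7 and 3 and the member genes 4, 2 and 3 in the order above, Pik3r5 in mTEC-II against mTEC-I passed (adjusted p = 0.0433) and the Bcat1 peak did not (0.0544). The edgeR alternative was not run. Depth limits mTEC-I most: in replicate 2 a count of 0 allows a level of 17.6.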
